A study of Homo sapiens with 3 samples.

Results

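To examine RUNX2 and CBFB binding at the HOX clusters, the ChIP-seq peaks (chromatin immunoprecipitation with sequencing) of SAOS2 cells were searched around every protein-coding gene whose symbol starts with HOXA, HOXB, HOXC or HOXD and a number. The rule found 39 genes of 20162 protein-coding genes on chromosomes 1 to 22, X and Y, with 11 in HOXA, 10 in HOXB, 9 in HOXC and 9 in HOXD. A peak was assigned to a gene when it lay within 25 kb of the gene body, so 1 peak could count for several neighbouring genes. By this rule 1 RUNX2 peak and 18 CBFB peaks belonged to HOX genes.

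The series held 3 samples of untreated SAOS2 cells, an established human osteosarcoma line that is p53 null: a RUNX2 ChIP made with a custom antibody, a CBFB ChIP made with a commercial antibody, and an input library, which was not analysed here. Each antibody had 1 library, so there were no replicates and no test between groups was possible, and 1 cell line stood for osteosarcoma. The RUNX2 list held 9941 peaks and the CBFB list 27246 peaks, 2.74 times as many. The lists held no read counts, so the depth of the libraries is unknown.

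HOX genes encode homeodomain transcription factors that specify position along the body axis. In mammals they lie in 4 clusters, HOXA to HOXD, in which all members are transcribed in the same direction, and genes with low numbers act in anterior and genes with high numbers in posterior regions, the limbs included. RUNX2 is the RUNX family transcription factor that drives osteoblast differentiation, and it binds the core sequence TGTGGT. CBFB is the partner subunit of all RUNX proteins and does not bind DNA itself.

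The sequences below show some of the peaks: the single peak that both antibodies gave, the highest-scoring CBFB peaks of HOXB and HOXC, and 4 CBFB peaks of HOXA and HOXD from those with a RUNX core in the peak. They do not stand for all 18 CBFB peaks, of which 10 held a core anywhere and 5 within 100 bp of the midpoint. The highest-scoring CBFB peak of HOXA held no core and is not printed. Each line gives 40 bases to either side of the RUNX core nearest to the midpoint of the peak, read from the strand on which the core reads TGTGGT, in hg19 (GRCh37). The first line has no core and shows 40 bases to either side of the midpoint of the RUNX2 peak. Capitals mark the RUNX core, TGTGGT or its complement ACCACA, wherever it occurs in the printed stretch.
Shared RUNX2 and CBFB peak at HOXD, chr2:177039413-177039493, plus strand: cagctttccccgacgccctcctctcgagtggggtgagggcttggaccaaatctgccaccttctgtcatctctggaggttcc
CBFB peak in an intron of HOXA3, chr7:27174221-27174306, minus strand: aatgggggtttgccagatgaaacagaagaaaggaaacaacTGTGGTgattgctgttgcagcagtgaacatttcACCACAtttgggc
CBFB peak upstream of HOXA11, chr7:27227487-27227572, plus strand: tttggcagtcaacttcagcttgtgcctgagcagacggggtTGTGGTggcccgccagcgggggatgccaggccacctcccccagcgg
CBFB peak between HOXB1 and HOXB2, chr17:46616752-46616837, minus strand: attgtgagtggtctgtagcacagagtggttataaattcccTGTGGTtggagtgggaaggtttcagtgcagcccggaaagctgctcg
CBFB peak in HOXC10, chr12:54380070-54380155, plus strand: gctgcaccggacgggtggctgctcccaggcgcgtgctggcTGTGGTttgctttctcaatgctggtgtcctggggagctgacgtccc
CBFB peak in EVX2 beside HOXD13, chr2:176945664-176945749, plus strand: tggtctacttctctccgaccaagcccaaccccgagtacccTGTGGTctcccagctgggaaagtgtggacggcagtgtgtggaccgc
CBFB peak in HOXD3, chr2:177002063-177002148, plus strand: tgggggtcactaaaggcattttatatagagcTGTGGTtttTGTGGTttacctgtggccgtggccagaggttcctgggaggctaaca
The HOXA3 intron line holds a core on each strand and the HOXD3 line holds 2 cores on the same strand, whereas the other CBFB lines hold 1.

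Few HOX genes had a RUNX2 peak. Of the 39 HOX genes, 3 had a RUNX2 peak within 25 kb (7.69%), namely HOXD1, HOXD3 and HOXD4, compared with 36.0% of all protein-coding genes. All 3 were counted through the same peak. None of 11 HOXA, 10 HOXB or 9 HOXC genes had a RUNX2 peak in reach. No HOX gene had a RUNX2 peak within 5 kb of its transcription start site (TSS), compared with 12.7% of all protein-coding genes. Because neighbouring HOX genes share their surroundings, these 39 genes stood for 4 stretches of DNA and not for 39 independent ones. Counted over DNA, the 4 clusters with their flanks of 25 kb covered 681.5 kb and held 0.147 RUNX2 peaks per 100 kb (exact Poisson 95% interval 0.00371 to 0.818), and the territory of all protein-coding genes, defined the same way, held 0.434. The interval included the value of the whole territory, so a lower density was not detectable with 1 peak. The 3 clusters without a RUNX2 peak covered 533.3 kb. A count of 0 over that length, read by a 1-sided rule as allowing up to 3 peaks, would allow up to 0.562 peaks per 100 kb. These clusters were picked by their count of 0, so this value is no valid limit on their density. The intervals cover counting error only.

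Within 25 kb, CBFB peaks were found at most HOX genes, but unevenly between the clusters. A CBFB peak lay within 25 kb of 28 of the 39 HOX genes (71.8%), compared with 62.2% of all protein-coding genes. This count depended on the reach and on weak peaks: within 5 kb of the gene body it was 14 of 39 (35.9%), compared with 48.4% of all protein-coding genes, and with the CBFB list shortened to its highest-scoring 9941 peaks it was 8 of 39 (20.5%), compared with 34.6%. At 25 kb and with all peaks, the genes were 9 of 11 HOXA genes (81.8%), 3 of 10 HOXB genes (30.0%), 7 of 9 HOXC genes (77.8%) and 9 of 9 HOXD genes. Near the TSS, 8 of 39 HOX genes (20.5%) had a CBFB peak within 5 kb of the TSS, compared with 31.9% of all protein-coding genes. With 39 genes in 4 stretches of DNA, whether this share differs from that of all genes was not tested. Of the 8 HOX genes with such a peak, 5 were HOXA genes, 2 HOXC genes and 1 a HOXD gene. The HOX genes had 2.15 CBFB peaks each on average, against 1.66 for all protein-coding genes, and the median was 1 for both. Each of the 18 CBFB peaks lay within 25 kb of 3 to 7 HOX genes, so this average counts every peak several times. The part of gene spacing in it was not tested.

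**Figure D1:**
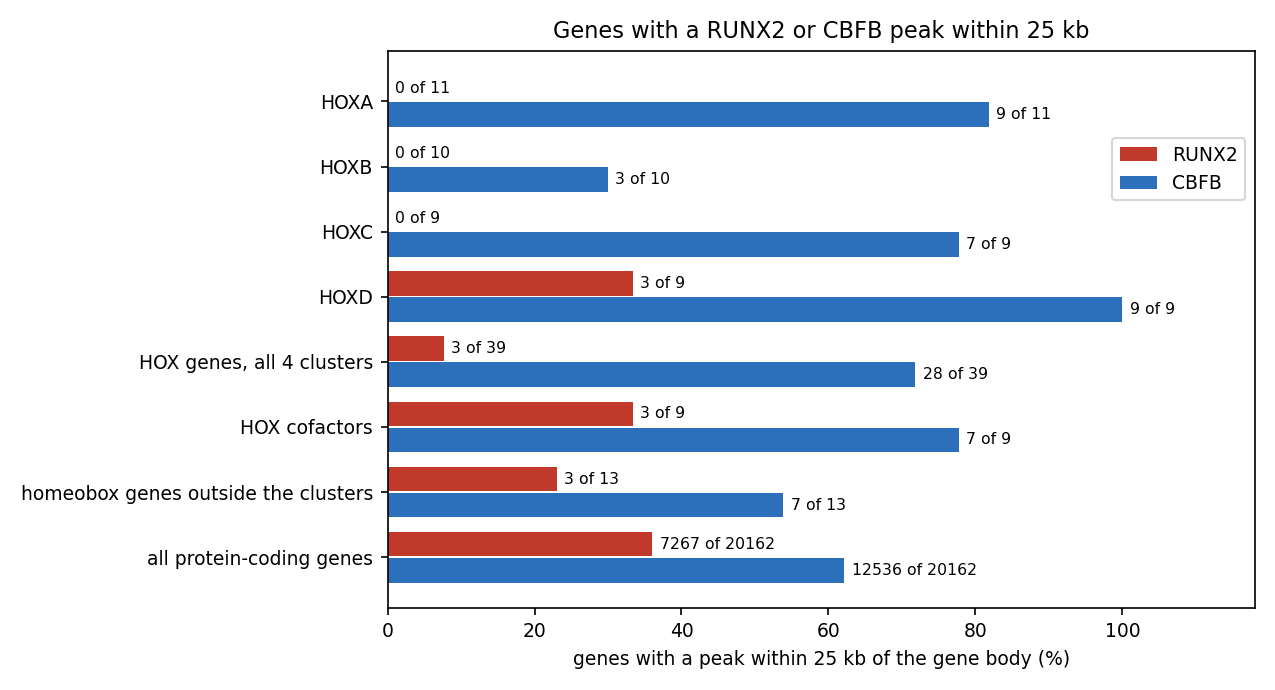
Percentage of genes with a peak within 25 kb of the gene body (x axis) for each HOX cluster, all HOX genes, 2 further gene lists and all protein-coding genes (y axis), with RUNX2 in red and CBFB in blue and the counts beside the bars. RUNX2 bars are at 0 for HOXA, HOXB and HOXC, and the CBFB bar of HOXB, at 3 of 10, is the shortest CBFB bar.

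With all peaks counted, HOXD and HOXA held more CBFB peaks per length of DNA than HOXC and HOXB. HOXD held 8 CBFB peaks, 5.40 per 100 kb (exact Poisson 95% interval 2.33 to 10.6), and HOXA held 7, 4.46 per 100 kb (1.79 to 9.18). HOXC held 2, 1.20 per 100 kb (0.145 to 4.32), and HOXB held 1, 0.478 per 100 kb (0.0121 to 2.67). The intervals of HOXA and HOXD lay above the 1.21 per 100 kb of all protein-coding territory, and those of HOXB and HOXC included it. The intervals treat neighbouring peaks as independent, but gaps between peaks were as short as 0.2 kb in HOXA and 0.738 kb in HOXD. They are therefore no test of enrichment. With the CBFB list shortened to its highest-scoring 9941 peaks, HOXA and HOXB held 0 peaks and HOXC and HOXD 1 each. The clusters were not tested against each other. Together the 4 clusters held 2.64 CBFB peaks per 100 kb (1.57 to 4.17).

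**Figure D2:**
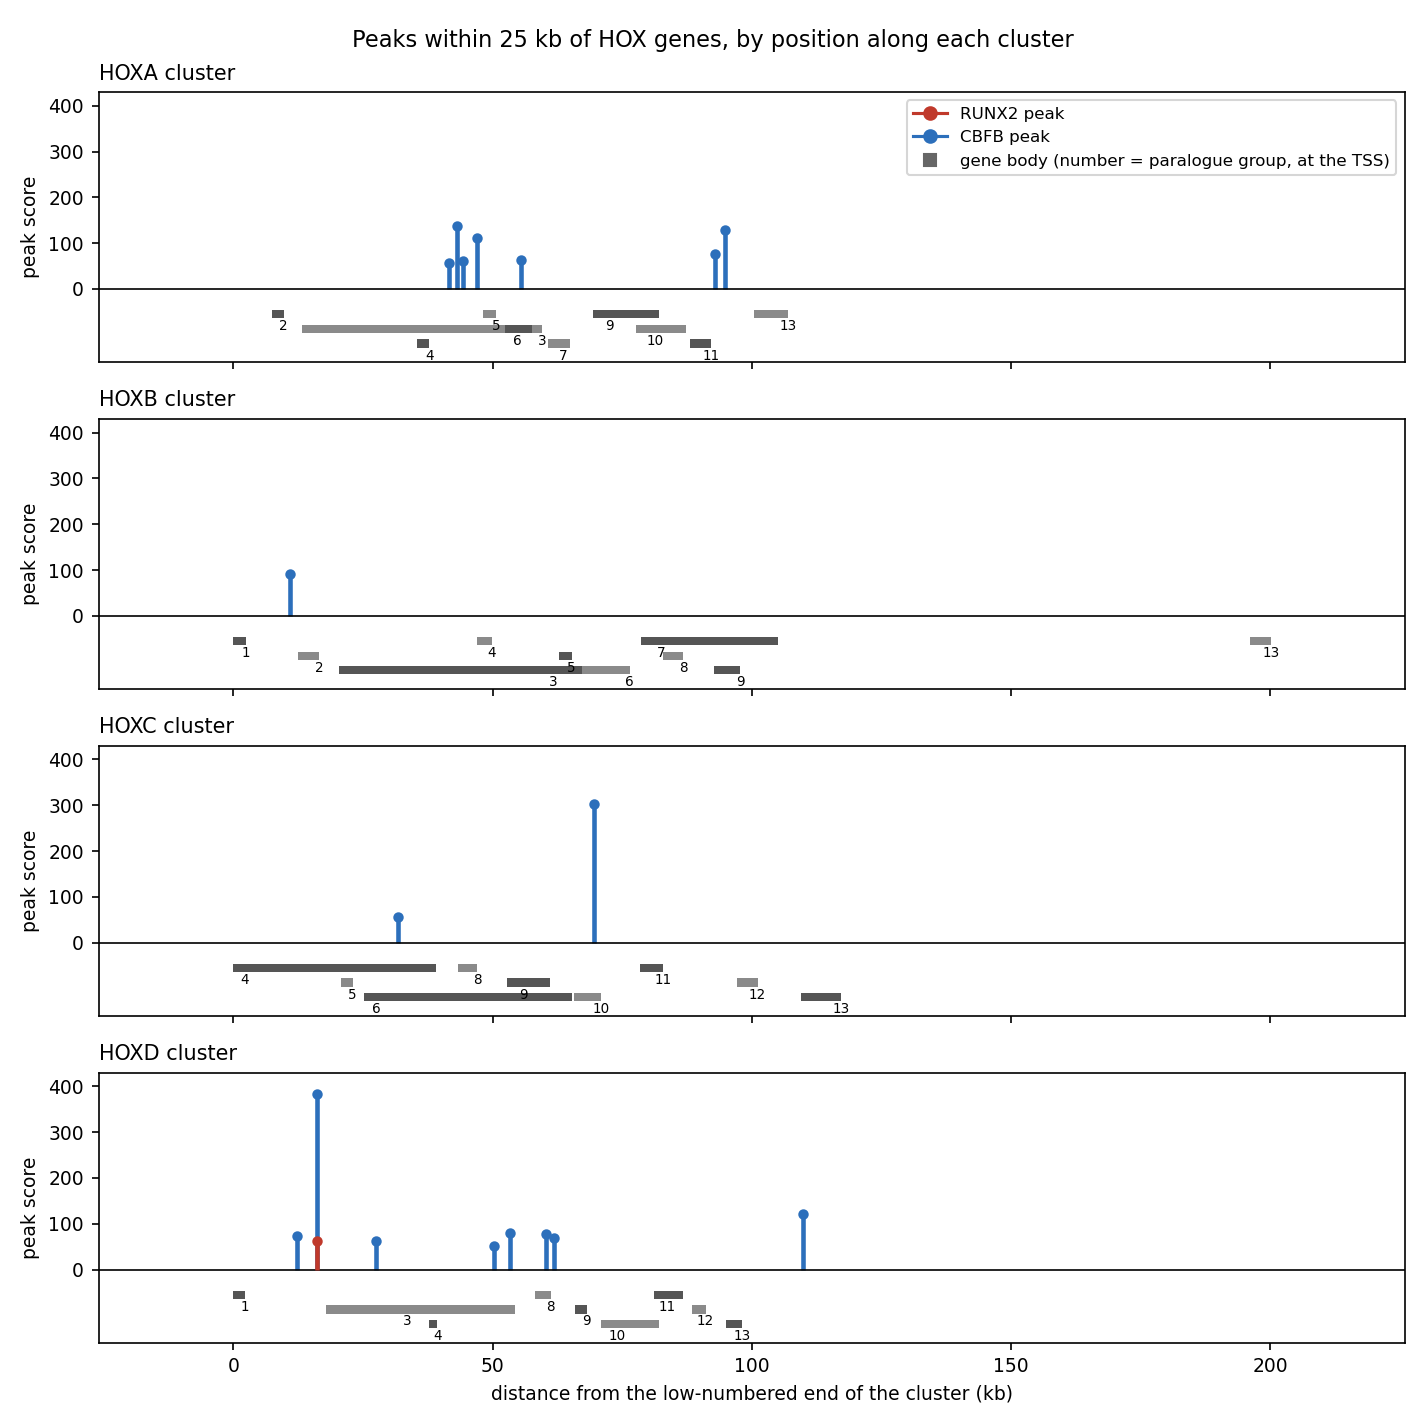
Peaks along the 4 HOX clusters, with the distance from the low-numbered end of the cluster on the x axis (kb) and the peak score on the y axis, RUNX2 in red, CBFB in blue, and grey bars for gene bodies numbered by paralogue group. HOXA and HOXD hold 7 and 8 CBFB peaks, HOXB and HOXC 1 and 2, and the single RUNX2 peak stands with the highest CBFB peak, between HOXD1 and HOXD3.

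The single RUNX2 peak at a HOX gene lay at chr2:177039043-177039863, 821 bp wide, between HOXD3 and HOXD1. Its midpoint was in an exon of HAGLR, a long noncoding RNA transcribed from the opposite strand of the HOXD cluster, 13943 bp upstream of the TSS of HOXD1 and 1.21 kb from the body of HOXD3. HOXD1 and HOXD3 are anterior members, and HOXD4, whose body was 21.1 kb from the peak, is a central one. Its score was 62.24, where the score was read as -10 times the log10 of the p-value given by the peak caller MACS and depends on the depth of the library. It ranked 7493 of 9941 RUNX2 peaks, and 24.6% of the list scored as low or lower.

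This RUNX2 peak overlapped the CBFB peak at chr2:177038816-177040293, which was 1478 bp wide and had a score of 382.82, the highest of the 18 CBFB peaks at HOX genes. The midpoints of both peaks were 101 bp apart. In its own list the CBFB peak ranked 3570 of 27246, at percentile 86.9. The site thus ranked high in the CBFB list and low in the RUNX2 list. The scores themselves were not compared between lists. Neither peak held a RUNX core at any position, as the printed stretch shows for its centre.

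CBFB peaks at HOX genes were mostly without a RUNX2 peak. Of the 18, 1 shared 1 bp or more with a RUNX2 peak (5.56%, exact Clopper-Pearson 95% interval 0.141 to 27.3), compared with 33.8% of all CBFB peaks. In the other direction, the 1 RUNX2 peak overlapped a CBFB peak, as did 94.2% of all RUNX2 peaks. The authors reported a lower share of RUNX2 peaks with a CBFB peak and did not state the overlap they required. The reason for this difference was not tested. The peaks at HOX genes had low scores for the CBFB list. Their scores ran from 50.91 to 382.82 with a median of 77.99, below the list median of 121, and 5 of 18 were at or above that median.

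The share of CBFB peaks with a RUNX2 peak rises with score in the whole list, so the HOX peaks were also set beside it by score. The list was divided into 5 score groups of equal size, where group 1 held the lowest scores. HOX peaks numbered 6 in group 1 (scores up to 68.68), 6 in group 2, 4 in group 3, 0 in group 4 and 2 in group 5 (scores from 278). In the whole list 5.76% of group 1, 11.6% of group 2, 22.4% of group 3 and 84.3% of group 5 overlapped a RUNX2 peak. Of the HOX peaks, 0 of 16 in groups 1 to 3 overlapped one, and 1 of 2 in group 5 did. The part of the score in the low overlap at HOX genes was not tested.

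**Figure D3:**
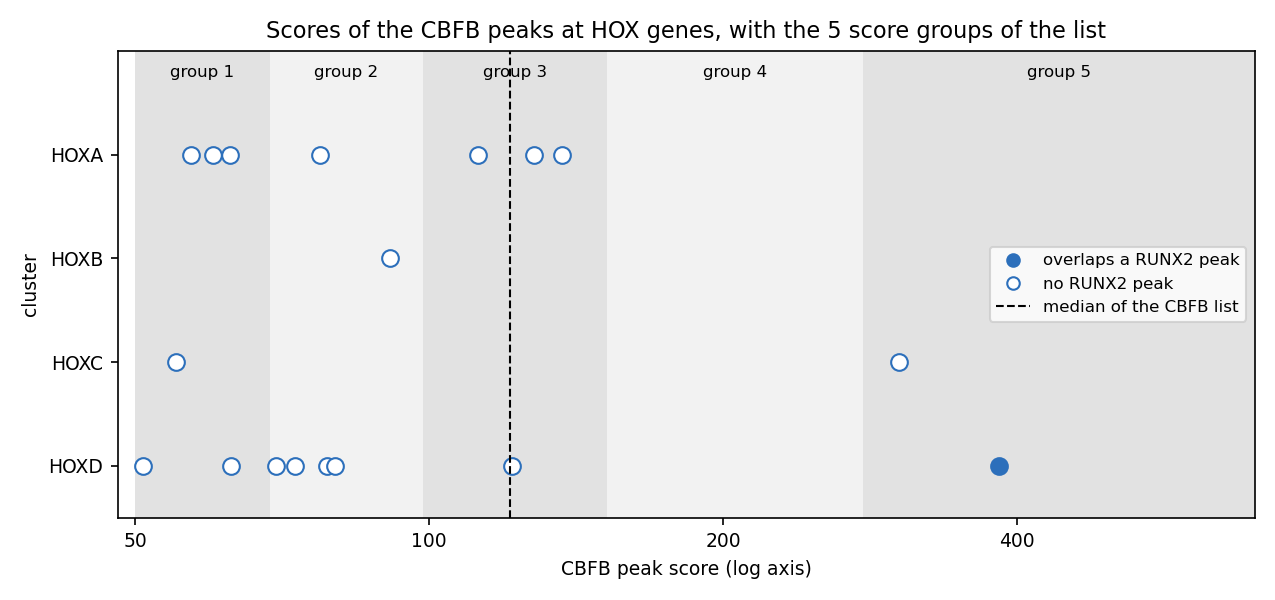
Scores of the 18 CBFB peaks at HOX genes (x axis, log scale) by cluster (y axis), with shaded score groups of the whole CBFB list and a dashed line at the list median; the filled circle overlaps a RUNX2 peak and open circles do not. Of the 18 circles, 13 lie left of the median line, and the filled one, at 382.82 in HOXD, is the highest.

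At HOXA, 7 CBFB peaks fell into 2 groups with a gap of 36.6 kb between them. The cluster spans 107 kb on the minus strand of chromosome 7. The first 5 peaks lay between 38.9% and 51.8% of the span, counted from the anterior end, all with midpoints in introns of HOXA3. The annotated body of HOXA3 also runs across HOXA4, HOXA5 and HOXA6, central members that act in the patterning of the neck and thorax. The TSSs of HOXA5 and HOXA6 lay between these peaks, and the body of HOXA4 lay outside them, 3.43 kb from the nearest. The highest score in the cluster, 136.81 (percentile 55.5), belonged to the peak at chr7:27175356-27176309, 954 bp wide and 5456 bp upstream of the HOXA4 TSS. It overlapped no RUNX2 peak and held no RUNX core.

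The other peaks in HOXA3 scored between 57.03 and 112.08. The peak at chr7:27173829-27174748 scored 57.03 and had 2 RUNX cores, both in the printed sequence, the nearer of them 24.5 bp from the midpoint. The peak at chr7:27176510-27177369 scored 60.04 and had no core. The peak at chr7:27179230-27180132 scored 112.08, the second highest of the group, and had 2 cores. The peak nearest to a TSS in this group was the one at chr7:27187620-27188491, which scored 62.58 and lay 662 bp upstream of the HOXA6 TSS, and it had no core.

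The second HOXA group lay at the posterior end, upstream of HOXA11, a gene required for limb and kidney development. The peak at chr7:27225141-27225995 scored 77.4 and lay 717 bp upstream of the HOXA11 TSS, and the peak at chr7:27226880-27228152 scored 127.91 and lay 2665 bp upstream. Both midpoints were in introns of HOXA11-AS, the antisense RNA of HOXA11. The second of them had a RUNX core 13.5 bp from its midpoint, the closest of all HOX peaks. The TSSs of HOXA3, HOXA7, HOXA9, HOXA10 and HOXA11 lay in the gap of 36.6 kb without a CBFB peak between the groups. HOXA2, an anterior member, had no CBFB peak within 25 kb, and the nearest was 31.5 kb away. HOXA3 to HOXA9 had 5 peaks in reach each, HOXA10 had 3, and HOXA11 and HOXA13 had 2.

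HOXB is the longest cluster, 200.2 kb on the minus strand (chr17:46605888-46806112), and had the fewest peaks. Its CBFB peak, at chr17:46616433-46617347, was intergenic, between HOXB1 and HOXB2, which pattern the hindbrain, and 0.909 kb from the body of HOXB2. It was 915 bp wide, scored 91.12 (percentile 35.9), overlapped no RUNX2 peak and had a RUNX core 95.5 bp from the midpoint, in the longer form TGTGGTT. HOXB1, HOXB2 and HOXB3 were within 25 kb of it. HOXB4, HOXB5, HOXB6, HOXB7, HOXB8, HOXB9 and HOXB13 had no CBFB peak in reach, and their distances to the nearest one ran from 35.5 kb for HOXB4 to 87.9 kb for HOXB13. The TSSs of the 9 genes from HOXB2 to HOXB13 thus lay in 1 stretch of 276.7 kb without a CBFB peak.

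HOXC (117 kb, plus strand, chr12:54332615-54449814) had 2 CBFB peaks, 36.7 kb apart. The peak at chr12:54379566-54381017 was 1452 bp wide and lay in an intron of HOXC10, a posterior gene of the lumbar region and hindlimb, 1361 bp downstream of its TSS. The annotation also places it in an intron of an unnamed protein-coding gene that spans several HOXC genes. Its score of 302.57 (rank 4903 of 27246, percentile 82.0) was the highest of any HOX peak without a RUNX2 peak. It had a RUNX core 178.5 bp from its midpoint, followed by a further T. The other peak, at chr12:54417719-54418420, scored 55.12 (percentile 6.36), had no core, and lay in introns of longer transcripts of HOXC4 and HOXC6, 4155 bp upstream of the HOXC6 TSS. HOXC6, HOXC8 and HOXC9 had both peaks in reach, and HOXC4, HOXC5, HOXC10 and HOXC11 had 1. HOXC12 and HOXC13, the posterior end, had none, at distances of 26.8 and 39.2 kb.

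HOXD (98.2 kb, plus strand, chr2:176957449-177055635) had 8 CBFB peaks, and every HOXD gene had at least 1 in reach. HOXD3 and HOXD4 had 7 each, the most of any HOX gene. HOXD8, HOXD9 and HOXD10 had 4, HOXD1 and HOXD11 had 3, and HOXD12 and HOXD13 had 1. HOXD9 to HOXD13, which pattern the limbs and digits, had all their TSSs in a stretch of 47.1 kb without a CBFB peak. The peak beyond this stretch, at chr2:176945171-176946192, was outside the row of HOX genes, in an intron of EVX2, the homeobox gene beside HOXD13, 11768 bp upstream of the HOXD13 TSS. It scored 121.48, had 2 RUNX cores, the nearer 25.5 bp from the midpoint, and overlapped no RUNX2 peak. It was the highest-scoring HOXD peak without RUNX2.

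A row of CBFB peaks ran from HOXD8 to HOXD3. The peak at chr2:176993329-176994209 scored 69.64 and lay 664 bp upstream of the HOXD8 TSS, and the peak at chr2:176994948-176995825 scored 78.58 and lay in an exon of HOXD8. Both flank the start of HOXD8, a central member. The peaks at chr2:177001768-177002697 (score 80.11) and chr2:177004995-177005664 (score 50.91) lay in introns of a longer HOXD3 transcript. The first of these had the paired cores printed above, 126.5 bp from the midpoint at the nearest, and the second had none and held the lowest score of all 18 peaks. A peak at chr2:177027743-177028483 in an intron of HOXD3 scored 62.66 and had 1 core.

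Next to the shared site was another CBFB peak, at chr2:177042822-177043741, with a score of 72.95 and no core, in an exon of HAGLROS and an intron of HAGLR. It was 10115 bp upstream of the HOXD1 TSS. The shared site, with a score of 382.82, was therefore flanked on both sides by CBFB peaks below the list median of 121 that had no RUNX2 peak.

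Along the clusters, CBFB peaks were most often nearest to the start of a central gene. The genes of paralogue groups 1 to 3 were called anterior (8 genes), 4 to 8 central (15 genes) and 9 to 13 posterior (16 genes), and each peak was assigned to the nearest HOX TSS. Of the 18 CBFB peaks, 4 were nearest to an anterior, 10 to a central and 4 to a posterior gene. The central peaks were 5 in HOXA, 4 in HOXD and 1 in HOXC, and the anterior ones 3 in HOXD and 1 in HOXB. Paralogue group 8 had 4 peaks, all nearest to HOXD8, and groups 7, 9 and 12 had none. This order depended on the assignment and on the score. By nearest gene body, 10 peaks were anterior, 4 central and 4 posterior, since the long annotated bodies of HOXA3 and HOXD3 run across central genes. Among the peaks with a score of at least 100, 1 was nearest to an anterior, 2 to a central and 3 to a posterior TSS. By genes with a peak within 25 kb, the bands were alike, with 6 of 8 anterior, 10 of 15 central and 12 of 16 posterior genes for CBFB. For RUNX2 the counts were 2 of 8, 1 of 15 and 0 of 16, all through the single HOXD peak.

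Distances showed how far RUNX2 peaks were from the clusters. The median distance from a HOX gene body to the nearest RUNX2 peak was 189.5 kb (range 1.21 to 296 kb), against 62.9 kb for all protein-coding genes. Of the 39 genes, 26 were over 100 kb from the nearest RUNX2 peak, with 11 of 11 in HOXA, 6 of 10 in HOXB, 9 of 9 in HOXC and 0 of 9 in HOXD, compared with 40.8% of all protein-coding genes. For CBFB the median distance was 8.66 kb against 6.74 kb, and 0 of 39 HOX genes were over 100 kb away, compared with 18.6% of all protein-coding genes.

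**Figure D4:**
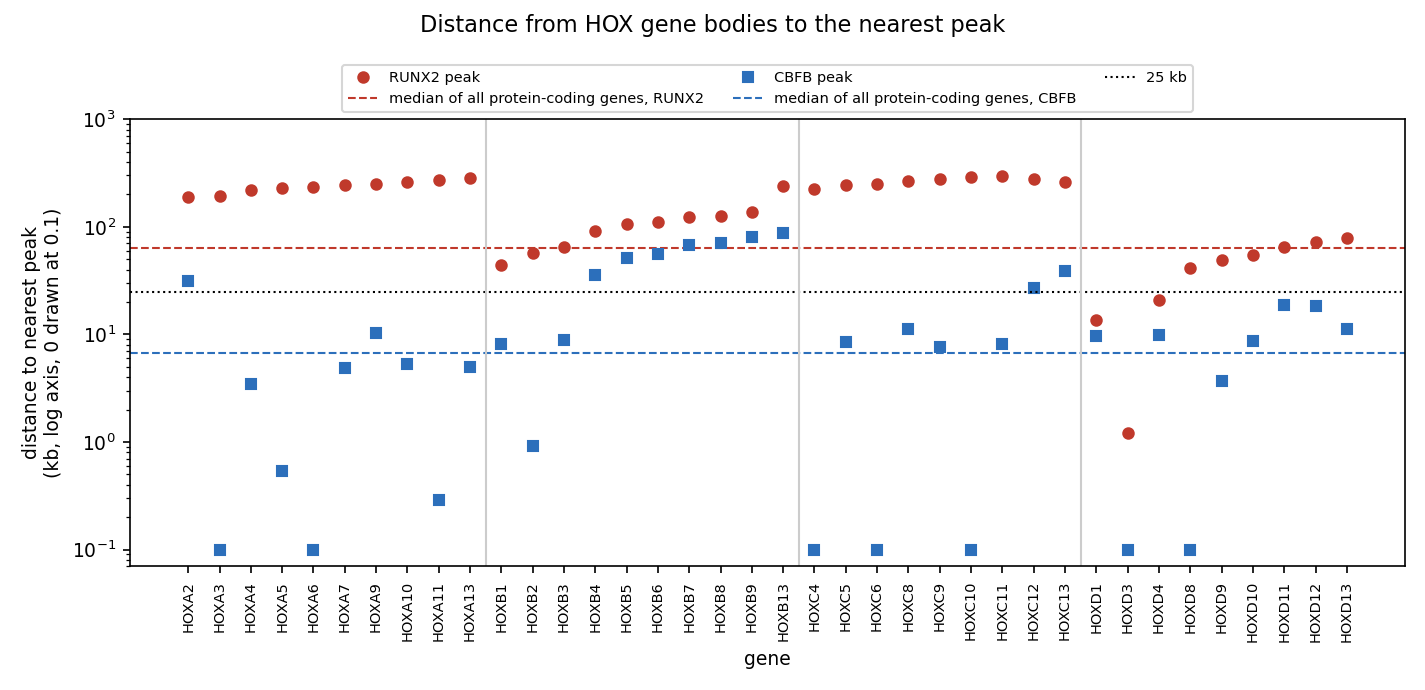
Distance from HOX gene bodies (x axis, ordered by cluster and paralogue group) to the nearest peak (y axis, kb, log scale, with 0 drawn at 0.1), with RUNX2 as red circles and CBFB as blue squares, dashed lines at the medians of all protein-coding genes and a dotted line at 25 kb. RUNX2 circles of HOXA and HOXC all lie above 100 kb, those of HOXD1, HOXD3 and HOXD4 lie below 25 kb, and CBFB squares lie below the RUNX2 circle for every gene drawn.

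The stretches without a RUNX2 peak were long at the HOX clusters, and many other genes lay in stretches as long. HOXA lay in a stretch of 990.2 kb between neighbouring RUNX2 peaks, HOXB in 765 kb and HOXC in 603 kb, while the RUNX2 peak of HOXD parted stretches of 626 and 316 kb. Over all protein-coding genes the median stretch was 463 kb, and 28.7% of the genes lay in a stretch at least as long as that of HOXA, 35.6% for HOXB and 41.8% for HOXC. The closest RUNX2 peak outside the clusters was 44.4 kb beyond HOXB1, at chr17:46560753-46561480, with a score of 89.76. It was intergenic and had HOXB1 as its nearest protein-coding TSS. On the HOXC4 side the next RUNX2 peak was 224 kb away at CBX5 and HNRNPA1 (score 86.23). All 8 RUNX2 peaks next to the clusters overlapped a CBFB peak, as did 94.2% of all RUNX2 peaks.

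RUNX cores were present in all 4 clusters. The territories of the 4 clusters held 347 cores on either strand, 5.09 per 10 kb, against 7.71 per 10 kb over all protein-coding territories, with a GC content of 49.8% against 42.2%. The cores per 10 kb were 4.39 in HOXA, 5.84 in HOXB, 4.49 in HOXC and 5.47 in HOXD. HOXB, with the fewest CBFB peaks, thus had the most cores per length. A CBFB peak covered 14 of the 347 cores, 6 in HOXA, 1 in HOXB, 1 in HOXC and 6 in HOXD. The CBFB peaks themselves covered 6637 bp at HOXA, 915 bp at HOXB, 2154 bp at HOXC and 7520 bp at HOXD. Cores under a CBFB peak were not counted over all protein-coding territories, so the 14 cannot be called few or many for HOX genes.

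Within 100 bp of the midpoint, a core was found in 5 of 18 CBFB peaks (27.8%, exact Clopper-Pearson 95% interval 9.69 to 53.5), compared with 41.6% of all CBFB peaks. The interval included that value. The 5 were the HOXB peak, 3 of HOXA and the EVX2 peak beside HOXD13. The RUNX2 peak had none, compared with 43.2% of all RUNX2 peaks with one. In the whole length of the peak, 10 of 18 CBFB peaks (55.6%, 30.8 to 78.5) had a core, against 80.9% of all CBFB peaks, and that interval lay below the list value. The HOX peaks were also narrower, with a median width of 909 bp against 1148 bp, and richer in GC, with a median of 58.5% (41.3 to 79.6) against 48.8%, and the part of width and GC content in this was not tested.

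Other motifs were searched in the same windows of 201 bp on both strands, by their letters and with no allowance for overlap between motifs. The ETS motif CCGGAAG was in 3 of 18 CBFB peaks at HOX genes (16.7%, 3.58 to 41.4) against 2.43% of the list, namely the peak 717 bp upstream of HOXA11, the HOXC10 peak and the EVX2 peak. The CTCF motif CCANNAGNNGGC was in 2 (11.1%, 1.38 to 34.7) against 1.50%, both in HOXD, at the peaks with scores of 50.91 and 62.66. CTCF is the insulator protein that binds at boundaries within the clusters. The TEAD motif GGAATG was in 1, the peak upstream of HOXA6, against 14.4% of the list. The AP-1 motif TGANTCA and the HOX-PBX motif TGATNNAT were in 0 of 18 (upper bound 18.5%), against 11.9% and 7.59% of the list. A match is a run of letters and no shown site, and with 18 peaks each share rests on few of them.

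The promoters of HOX genes were read from the RefSeq table (GRCh38.p14), which gives 250 bases before and 50 after each start. It held 27 promoters of 20 HOX genes, since a gene can have several. Of these promoters, 4 (14.8%) held the RUNX core, namely those of HOXC4, HOXC5 and HOXD10 and 1 of HOXA3, compared with 13.1% of all promoters in the table.

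PBX, MEIS and PKNOX proteins are the homeodomain partners with which HOX proteins bind DNA. Of 9 such genes, 3 (33.3%) had a RUNX2 peak within 25 kb and 7 (77.8%) a CBFB peak, beside 36.0% and 62.2% of all protein-coding genes. MEIS2 and PKNOX1 had 1 RUNX2 peak each, with scores of 77.89 and 108. PBX2 and PKNOX2 had no peak of either list.

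Of 13 homeobox genes outside the 4 clusters, 3 had a RUNX2 peak (23.1%) and 7 a CBFB peak (53.8%), beside 36.0% and 62.2% of all protein-coding genes. DLX5 and DLX6, neighbours that act in skeletal development, shared 3 RUNX2 peaks with scores up to 498 and 4 CBFB peaks with scores up to 2988. GSX2 had 1 RUNX2 peak of score 96.98. MSX2, which also acts in bone, had 1 CBFB peak of score 50.81, and MSX1 had none. EVX1, beside HOXA13, had no peak of either list, whereas EVX2, beside HOXD13, had the CBFB peak given above.

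The noncoding genes of the clusters lie among the HOX genes and so shared their peaks. Of 9 found in the annotation, 2 had a RUNX2 peak within 25 kb, HAGLR and MIR10B, both the HOXD peak, and 7 had a CBFB peak (22.2% and 77.8%, beside 36.0% and 62.2% of all protein-coding genes). HAGLR had 4 CBFB peaks, MIR10B 6, MIR196B 3 and HOTTIP 2, and HOTAIR, MIR196A2 and MIR615 had 1. The peak of HOTAIR, the long noncoding RNA of the HOXC cluster, was the HOXC10 peak of score 302.57. HOTAIRM1, in HOXA, and MIR196A1, in HOXB, had none.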

How the data were processed

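ChIP-seq of RUNX2 and CBFB was done by the authors in SAOS2 cells cultured below passage 20, with 1 library per antibody, and peaks were called with MACS. The submitters' processing notes name CASAVA 1.8.2, MACS 1.4.1 and hg19. The authors deposited 1 list per antibody with the position and score of each peak. The deposited score was read as the MACS score, -10 times log10 of the p-value, because it ran from 50 to 3100 in both lists. How the reads were aligned, which limit was set for a call and whether the input served as control are not given in the sources used here, and such scores depend on depth.

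The HOX genes and the gene lists were chosen with earlier results of these data known. Gene positions came from GENCODE release 44 on GRCh37, and the TSS was that of the Ensembl canonical transcript. Peak starts were counted from 1. Peaks on other contigs (13 RUNX2 and 42 CBFB peaks) were left out wherever the annotation or sequence was used. Peaks overlapped when they shared at least 1 bp. Motifs were searched within 100 bp of the midpoint. Shares carry exact Clopper-Pearson and densities exact Poisson 95% intervals, for counting error only. Named with all values were the highest-scoring peaks of each cluster, with and without RUNX2, and the genes with the most and with no peaks. MIR10A was not matched in the annotation. Values of some list members are not reported here. The counting and overlap steps were tested on simulated lists. Alternatives changed the reach, the score limit, the required overlap, the motif window, the gene assignment and the list length. The software was Python 3.11.15 with pandas 2.3.3, numpy 2.4.6, matplotlib 3.10.9 and scipy 1.17.1.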

Additional observations from a re-analysis of the deposited data

How the results depend on the processing

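Of 76 alternative values, 47 stayed within the limits set for a change and 29 moved. With a reach of 5 kb from the gene body, 1 HOX gene had a RUNX2 peak and 14 had a CBFB peak (25.2% and 48.4% of all protein-coding genes). Counting peaks that touch a gene body gave 0 HOX genes with RUNX2 (0 peaks at HOXD) and 7 with CBFB (21.2% and 42.3% of all protein-coding genes), with 0 CBFB peaks at HOXB and 4 at HOXD. With a score of at least 100, no RUNX2 peak was at a HOX gene (0 genes, 0 at HOXD, 0 nearest to anterior genes, against 17.4% of all protein-coding genes). CBFB peaks at that score numbered 3 at HOXA, 0 at HOXB, 1 at HOXC and 2 at HOXD. Of these, 1 was nearest to anterior, 2 to central and 3 to posterior genes, which ended the lead of the central genes. With the limit set on both lists, 0% overlapped a RUNX2 peak. The CBFB peak of score 382.82 stayed, but the RUNX2 peak it overlaps, of score 62.24, fell below the limit. With the highest-scoring CBFB peaks, as many as in the RUNX2 list, 8 HOX genes had a peak (34.6% of all protein-coding genes), with 0 at HOXA, 0 at HOXB, 1 at HOXC and 1 at HOXD, of which 50% overlapped a RUNX2 peak. A reach of 100 kb, chosen after seeing the data, gave 13 HOX genes with RUNX2 (59.2% of all protein-coding genes), 1 RUNX2 peak at HOXB and 5 CBFB peaks there. Over the whole peak 55.6% of the HOX CBFB peaks held a RUNX core. By nearest gene body, 10 CBFB peaks were anterior and 4 central, which turned their order around. Reach, score limit and list length change how many peaks are counted. The share of HOX genes with CBFB also changed place with that of all protein-coding genes. It was above at 25 kb (71.8% against 62.2%) and with a score of at least 100 (51.3% against 48.2%). It was below at 5 kb (35.9% against 48.4%) and with the shortened list (20.5% against 34.6%). The cause of these changes was not tested.

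The results rest on 1 library per antibody of 1 cell line, and no paired analysis was possible because there were no replicates. The RUNX2 counts at HOX genes rest on 1 peak of low rank, which a stricter list leaves out. The depth is unknown, and a RUNX2 site below the calling limit would not be listed. No expression of the HOX genes was measured here.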
